A study of Mus musculus with 12 samples.

Results

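A set of 7 surface antigen genes used to read lymphocyte activation, chosen by symbol, was followed in IL-15 primed mouse natural killer (NK) cells: Cd69, Cd83, Cd44, Icam1, Ly6a, Cd38 and Tfrc. All 7 were found among the 55487 features of the expression table, and all 7 passed the filter on low values with 12364 genes in total. The RNA-seq samples form 3 groups of 4, unstimulated cells and cells stimulated for 6 h with anti-NK1.1, an antibody to an activating NK receptor, that were then negative (YFP-) or positive (YFP+) for a reporter. Every group, the unstimulated one included, came from strain B6.129S4-Ifngtm3.1Lky/J with genotype mut/mut, in which yellow fluorescent protein (YFP) reports the interferon gamma gene. All titles name HD IL-15, whose HD is not spelled out, and replicates are labelled f2 (titled F), m2, m3 and m4 (titled M) in each group. The labels give neither age nor the purification of the cells, and they do not say that samples are separate animals, so p-values measure the spread between these samples.

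NK cells are innate lymphocytes that kill target cells and secrete interferon gamma. Engagement of an activating receptor starts calcium, MAP kinase and NF-kB signalling, and within hours new mRNAs for surface proteins appear. Cd69 and Cd83 are classical early markers of lymphocyte and dendritic cell activation, Cd44 and Icam1 serve adhesion, and Ly6a and Cd38 are used to mark activated or interferon-exposed cells. Tfrc encodes the transferrin receptor, which brings in iron for growth.

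Library totals ran from 32.1 to 54.2 M reads (M, mega), so that 3 reads, the least taken as a level, corresponded to 0.0553 to 0.0933 CPM (read count scaled to a common library total); such floors cover counting error only. All 10 NK markers had at least 3 reads in all 12 samples, a low bar that Cd3g and Trac also passed. The NK markers summed to 11313 to 13939 CPM in unstimulated, 7841 to 10541 CPM in YFP- and 7333 to 11599 CPM in YFP+ samples. The largest were Gzma (3769 to 9334 CPM) and Prf1 (1696 to 5986 CPM), while Klrb1c ranged from 3.70 to 327 CPM. The 8 T cell markers summed to 52.8 to 113 CPM in unstimulated, 68.1 to 93.9 CPM in YFP- and 63.9 to 96.1 CPM in YFP+ samples, from Cd3g (11.7 to 79.4 CPM), Trac (6.83 to 54.5 CPM) and Cd3d (7.24 to 25.9 CPM), while Cd3e was at 0 to 1.49 CPM, Cd4 at no more than 0.184 CPM and Cd8a at no more than 0.193 CPM. The part of T cell transcripts in the results was not tested. The B cell, neutrophil and erythroid lists summed to at most 4.19, 0.868 and 0.326 CPM, with S100a9 at 0 throughout. The innate lymphoid list summed to 19.9 to 76.9 CPM, mostly from Gata3 (17.8 to 73.3 CPM). An endothelial list summed to 25.6 to 61.8 CPM, mostly from Pecam1. The part of such cells in the results was not tested. Ifng, the reporter gene, was higher in YFP+ than in YFP- samples by 2.86 on the log2 scale. One YFP+ library, m3, had a correlation across genes of 0.938 to 0.972 with the other YFP+ samples, against 0.957 to 0.982 among those. These ranges overlap, and the lowest value is one with m3. Ribosomal-RNA-like features took 29.8% of its reads, against 13.7% to 23.1% in the other YFP+ samples; the YFP- m3 library had 30.3% and the unstimulated ones 27.4% to 35.3%. Results that rest on it are given with and without it.

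In stimulated reporter-negative cells Cd83, Icam1, Cd44 and Cd69 rose by 3.10-fold (Cd69) to 246-fold (Cd83), Tfrc rose 1.47-fold, and Ly6a and Cd38 did not pass the test. In reporter-positive cells Cd83 was 5.72-fold and Icam1 5.37-fold below their levels in reporter-negative cells, Tfrc was higher, and Ly6a and Cd38 were at their lowest. Differences are in log2 CPM from limma with Benjamini-Hochberg adjustment over all genes, called at an adjusted p under 0.05. Between YFP- and unstimulated samples 5 of the 7 members were called, all 5 higher, where 51.1% of all genes were called, 30.2% higher and 20.9% lower. Between YFP+ and unstimulated samples 6 were called, 4 higher (Cd69, Cd83, Cd44, Tfrc) and 2 lower (Ly6a, Cd38), beside 60.8% of all genes, 27.5% higher and 33.3% lower. Both comparisons share the unstimulated samples. Between YFP+ and YFP- samples 6 were called, 5 lower in YFP+ and 1, Tfrc, higher, beside 21.8% of all genes, 3.28% higher and 18.5% lower. In bulk samples, fewer cells that express a gene and less RNA per cell cannot be told apart.

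**Figure D1:**
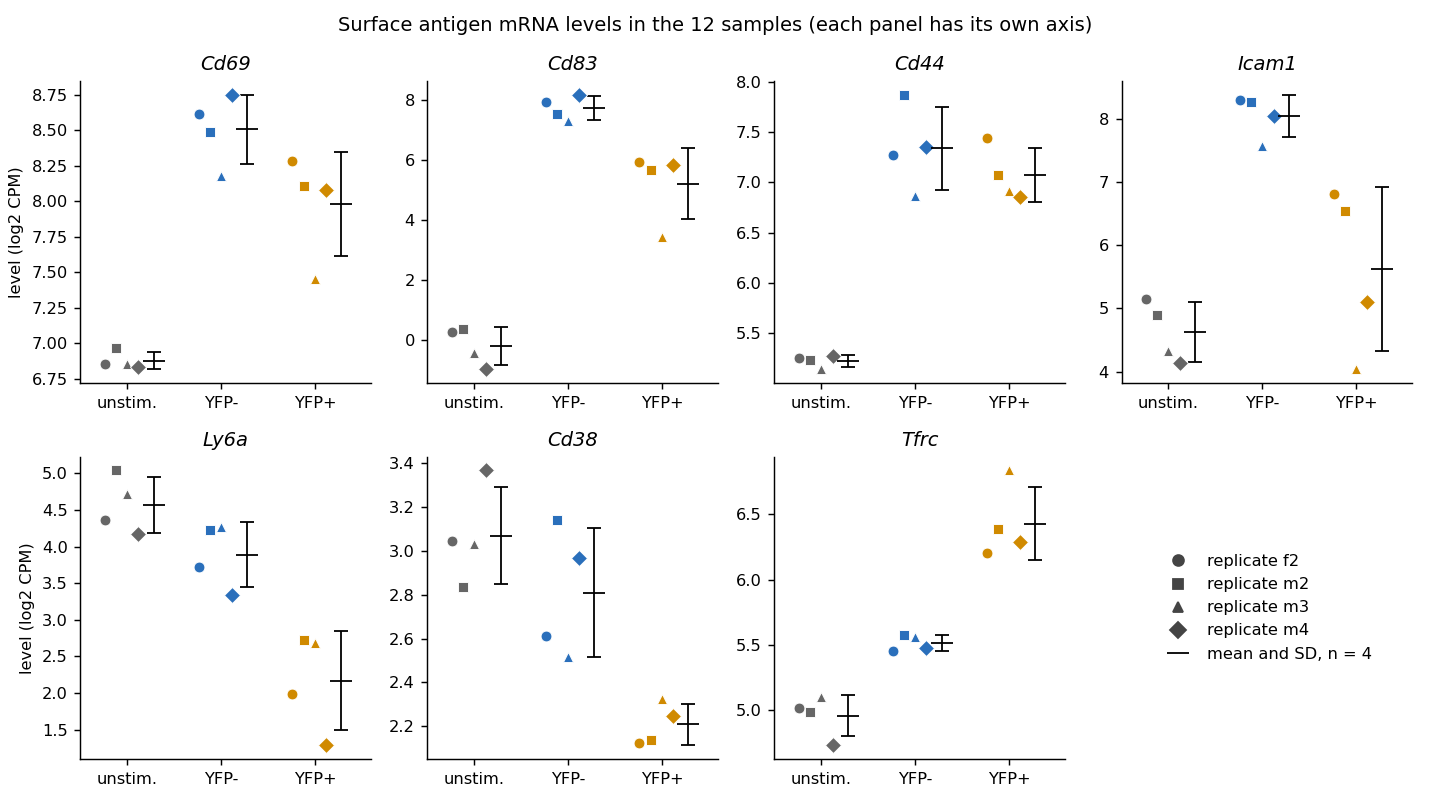
Level in log2 CPM (vertical axis, one scale per panel) of the 7 antigens in unstimulated, YFP- and YFP+ samples. Points are single samples, with a symbol for each replicate label, and bars give the mean and SD (n = 4). Cd83 rises from near 1 CPM in all 4 unstimulated samples, the YFP+ m3 sample is the lowest of its group for Cd69, Cd83 and Icam1, and Tfrc is highest in YFP+.

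The scaling of the samples bears on the last comparison. Over all genes the median log2 difference was 0.14 for YFP- over unstimulated, -0.03 for YFP+ over unstimulated and -0.19 for YFP+ over YFP-, and with trimmed-mean scaling of the recovered reads it was 0.00, 0.02 and -0.01. Of the genes called between YFP+ and YFP-, 15.1% were higher on the deposited scale, 38.7% after trimmed-mean scaling and 50.2% after median centring. Of the genes called between YFP- and unstimulated samples, 59.1% were higher as deposited and 46.8% with ribosomal-RNA-like features left out. None of the 7 changed direction in any of 19 alternative settings. Some of these, such as other thresholds or filters on low values, leave the difference itself unchanged and could not turn it.

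The early markers come first. Cd69 (ENSMUSG00000030156, GRCm38 chromosome 6, 129267325 to 129275436, minus strand, protein coding) encodes a C-type lectin that is put on the surface within hours of activation and binds the sphingosine-phosphate receptor S1pr1, holding lymphocytes in tissue. It was at 116, 125, 115.5 and 114 CPM in unstimulated samples f2, m2, m3 and m4. YFP- samples held 392, 358, 290.0 and 429.5 CPM in the same order. YFP+ samples held 312, 276, 175 and 269.9 CPM. Every stimulated sample lay above every unstimulated one, while the YFP- and YFP+ ranges met, since YFP- m3 fell below YFP+ f2. Cd69 was already transcribed before stimulation, and its rise was 3.10-fold in YFP- (log2 difference 1.63, SE 0.17, limma adjusted p = 5.14e-06) and 2.15-fold in YFP+ (1.105, SE 0.17, limma adjusted p = 6.94e-05). YFP+ was below YFP- by -0.53 (SE 0.17, limma adjusted p = 0.0399), and within each of the 4 labels the YFP+ sample was the lower one.

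That last call was not firm. Without the YFP+ m3 library the Cd69 difference was -0.35 (limma adjusted p = 0.0777), with trimmed-mean scaling it was -0.35 (limma adjusted p = 0.0863), and leaving out the label f2, m2 or m4 also ended the call. With ribosomal-RNA-like features left out of the totals it stood at -0.54 (limma adjusted p = 0.00656).

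Cd83 (ENSMUSG00000015396, chromosome 13, 43784775 to 43803132, plus strand, protein coding) encodes an immunoglobulin-family protein best known from mature dendritic cells, where it opposes ubiquitin ligases of the MARCH family and so keeps MHC class II and CD86 on the surface. Unstimulated f2, m2, m3 and m4 held 1.18, 1.26, 0.728 and 0.493 CPM, from 16 to 48 reads. The YFP- values were 244, 185, 157 and 291 CPM. The YFP+ values were 61.1, 51.0, 10.8 and 57.6 CPM. The 3 groups were fully separate, with YFP- highest, and YFP+ m3 was far below the other YFP+ samples. Among all 12364 genes its rise in YFP- ranked 4, at 246-fold (log2 difference 7.94, SE 0.48, limma adjusted p = 5.19e-08). In YFP+ the rise was 43.0-fold (5.43, SE 0.48, limma adjusted p = 4.79e-07). YFP+ stood 5.72-fold below YFP- (-2.52, SE 0.48, limma adjusted p = 0.00231).

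The size of the Cd83 rise depends on the low starting level: with a pseudocount of 1 CPM it was 6.83 in YFP- and 4.36 in YFP+, both still called by limma (adjusted p = 4.19e-08 and 8.49e-07). Without YFP+ m3 the YFP+ rise was 6.02 (limma adjusted p = 3.81e-09) and the gap to YFP- was -1.92 (limma adjusted p = 5.49e-04). Since Cd83 is a dendritic cell marker, markers of dendritic cells and macrophages were read beside it. Their 10 genes summed to between 90.0 and 115 CPM before stimulation, between 66.3 and 80.8 CPM in reporter-negative and between 21.2 and 25.2 CPM in reporter-positive samples. Most of that sum was H2-Ab1, which was lower in both stimulated groups, and Cd74, which like Cd83 was highest in YFP-, at 10.8, 39.1 and 10.4 CPM in unstimulated, YFP- and YFP+ samples. Cd74 rose by 1.95 in YFP- (limma adjusted p = 3.14e-05), and YFP+ was below YFP- by -1.91 (limma adjusted p = 1.60e-04). The highest value of Lyz2 was 0.803 CPM, of Csf1r 0.316 CPM and of Adgre1 0.0308 CPM. Xcr1, at 0.828 to 6.185 CPM, and Cd14, at 0.225 to 1.92 CPM, had at least 3 reads in all 12 samples. The part of such cells in the Cd83 values was not tested.

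Among the tested partners of these antigens, more were lower than higher after stimulation. Of the 13 listed names 7 were tested, of which 1 was higher and 5 lower in YFP-, 2 higher and 4 lower in YFP+ (both against unstimulated), and 0 higher and 3 lower in YFP+ against YFP-. Their median log2 differences were -1.03, -1.01 and -0.09. Over all genes 30.2% were higher and 20.9% lower in YFP-, and 27.5% and 33.3% in YFP+, against unstimulated samples. In YFP+ against YFP- the shares were 3.28% and 18.5%. The counts of the lists below are to be read beside the same shares. S1pr1 itself did not pass the filter, at 0.451, 0.389 and 0.0741 CPM in unstimulated, YFP- and YFP+ samples. S1pr5, the related receptor that guides NK cells out of bone marrow and lymph nodes, was at 2.74, 0.719 and 0.179 CPM, lower by -4.08 in YFP+ than in unstimulated samples (limma adjusted p = 7.13e-06). Klf2, the factor that drives S1pr1 transcription, went from 9.41 to 3.96 and 1.52 CPM (-2.63 in YFP+, limma adjusted p = 8.67e-08). H2-Ab1, an MHC class II chain, went from 89.6 to 27.8 and 10.5 CPM (-3.10, limma adjusted p = 3.85e-09). Marchf8 was at 10.1, 10.9 and 14.7 CPM, higher in YFP+ by 0.51 (limma adjusted p = 0.0336), and Cd86 did not pass the filter.

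Next are the adhesion molecules. Icam1 (ENSMUSG00000037405, chromosome 9, 21015985 to 21028817, plus strand, protein coding) encodes the ligand of the integrins LFA-1 and Mac-1. Its levels in unstimulated f2, m2, m3 and m4 were 35.6, 29.6, 20.0 and 17.5 CPM. In YFP- they were 315, 308, 190.1 and 263 CPM. In YFP+ they were 112, 92.7, 16.4 and 34.2 CPM. All YFP- samples exceeded all others, whereas the YFP+ samples scattered widely: m3 was below every unstimulated sample and m4 fell within their range. Icam1 rose 10.7-fold in YFP- (log2 difference 3.42, SE 0.48, limma adjusted p = 6.77e-05). YFP+ was 5.37-fold below YFP- (-2.42, SE 0.48, limma adjusted p = 0.003). YFP+ against unstimulated gave 0.99 (95% interval -0.05 to 2.04, limma adjusted p = 0.091), higher within 3 labels and not past the threshold. Without YFP+ m3 that difference was 1.52 and was called (limma adjusted p = 0.00216), while the gap to YFP- was -1.90 (limma adjusted p = 0.00233). Of the 19 alternatives, 6 called Icam1 between YFP+ and unstimulated samples and 13 did not. Trimmed-mean scaling was among the 13 (1.04, limma adjusted p = 0.0545). The antisense gene Gm47079 shares 511 exon bases with Icam1, and the strand setting of the counting is not given in the sources used here, but Gm47079 held 0 to 9 reads where Icam1 held at least 569.

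Cd44 (ENSMUSG00000005087, chromosome 2, 102811141 to 102901665, minus strand, protein coding) encodes the hyaluronan receptor, which also marks antigen-experienced lymphocytes. Unstimulated samples sat close together at 38.2, 37.5, 35.2 and 38.6 CPM. YFP- samples were at 154, 234, 116 and 164 CPM. YFP+ samples were at 174, 135, 121 and 115 CPM. Stimulated and unstimulated samples did not overlap, and the YFP- and YFP+ samples were intermixed. The rise was 4.34-fold in YFP- (log2 difference 2.12, SE 0.19, limma adjusted p = 1.42e-06) and 3.60-fold in YFP+ (1.85, SE 0.19, limma adjusted p = 1.64e-06). Of the 7 antigens Cd44 was the one not called between YFP+ and YFP-, at -0.27 with a 95% interval of -0.67 to 0.13 (limma adjusted p = 0.333). With trimmed-mean scaling the difference was -0.09 (limma adjusted p = 0.706).

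**Figure D2:**
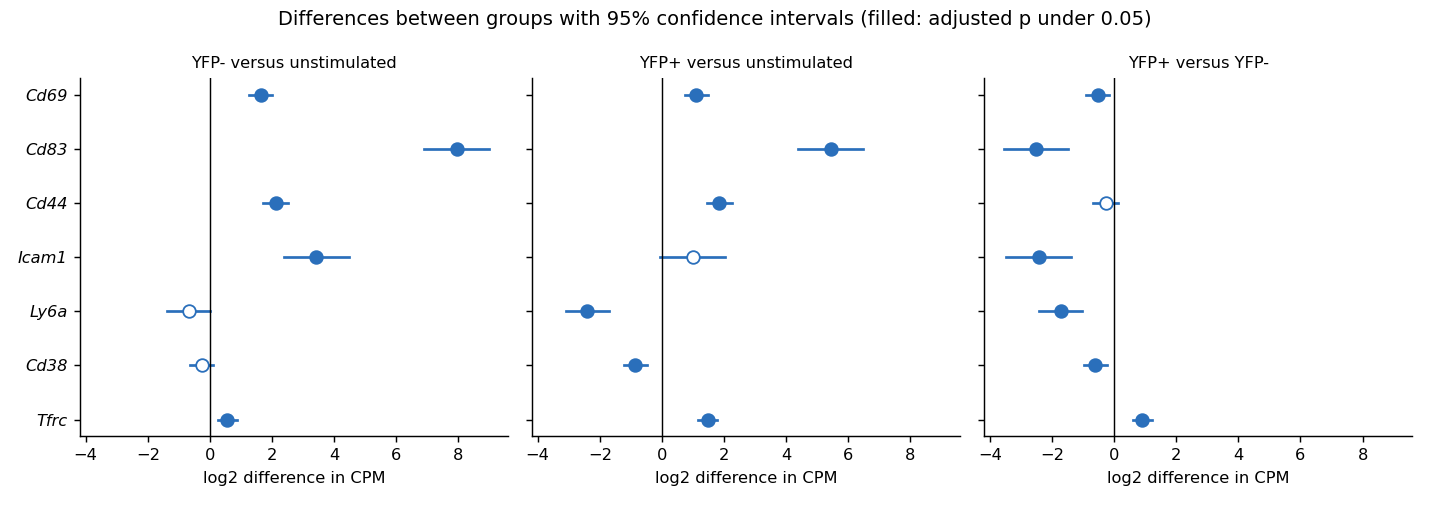
Log2 difference in CPM (horizontal axis) of each antigen for the 3 comparisons, with 95% confidence intervals from limma. Filled points have an adjusted p under 0.05: 5, 6 and 6 of the 7 genes, and Cd44 is the open point between YFP+ and YFP-.

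RefSeq promoter entries (GRCm38.p6) matched 4 of the 7 genes. The 250 bases before the start of Icam1 and Cd44 are printed because these adhesion genes both rose in YFP- samples, and between YFP+ and YFP- Icam1 was lower while Cd44 was not called. Icam1 is read from the plus strand at chr9:21015690-21015939 and Cd44 from the minus strand at chr2:102901666-102901915, 5′ to 3′, with motif matches in capitals.
Icam1: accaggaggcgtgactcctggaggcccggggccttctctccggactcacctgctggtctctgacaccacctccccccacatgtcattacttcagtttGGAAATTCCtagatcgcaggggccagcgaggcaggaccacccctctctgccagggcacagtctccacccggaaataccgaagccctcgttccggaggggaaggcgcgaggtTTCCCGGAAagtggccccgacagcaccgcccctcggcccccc
Cd44: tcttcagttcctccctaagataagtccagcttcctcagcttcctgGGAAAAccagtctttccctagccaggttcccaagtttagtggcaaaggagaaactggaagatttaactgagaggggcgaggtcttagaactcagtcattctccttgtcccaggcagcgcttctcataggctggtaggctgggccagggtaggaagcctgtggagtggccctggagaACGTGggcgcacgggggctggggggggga
The 10 motifs searched on both strands were NF-kB (GGANNTTCC), AP-1 (TGANTCA), CRE (TGACGT), NFAT (GGAAAA), GAS (TTCNNNGAA), ISRE core (GAAANNGA), E-box (CACGTG, which contains the HRE core), HRE core (ACGTG), EGR (GGGGGCG) and the box TATAAA. Their letters were chosen with results of these data and the sequences already seen. Icam1 held the NF-kB letters from -153 to -145, counted back from the start, which 3.59% of 32851 promoter windows hold, and the GAS letters from -42 to -34 (7.02% of windows). Cd44 held the NFAT letters from -205 to -200 (20.4% of windows) and the HRE core from -29 to -25 (16.6%). A match describes the letters only.

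Around Icam1, 10 of 11 listed ICAM and LFA-1 adhesion genes were tested. Against unstimulated samples 1 was higher and 2 lower in YFP-, and 2 higher and 4 lower in YFP+; YFP+ against YFP- gave 0 higher and 2 lower. Median log2 differences were 0.18, -0.47 and -0.59. Over all genes 27.5% were higher and 33.3% lower in YFP+ against unstimulated samples. The LFA-1 chains were not called: Itgal was at 176.5, 144.5 and 149.7 CPM in unstimulated, YFP- and YFP+ samples, and Itgb2 at 169, 376 and 309.5 CPM (limma adjusted p = 0.153 and 0.413 in YFP+ against unstimulated). Icam5, a relative known from neurons, went from 0.203 to 1.40 and 0.920 CPM (2.49 in YFP+, limma adjusted p = 0.0023). Itgam, the Mac-1 alpha chain, fell by 1.74 in YFP+ (limma adjusted p = 4.66e-04), Tln1, which links integrins to actin, fell by 0.96 (limma adjusted p = 3.54e-05), and Icam2 fell by 0.58 (limma adjusted p = 0.0020).

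Around Cd44, 7 of 13 listed hyaluronan and CD44 genes were tested, with 4 higher and 1 lower in YFP-, 3 higher and 3 lower in YFP+ against unstimulated, and 1 higher and 5 lower in YFP+ against YFP-. Median differences were 1.53, 0.04 and -1.54. Spp1, osteopontin, a secreted CD44 ligand, rose from 1448 to 5463 and 11880 CPM (3.05 in YFP+, limma adjusted p = 1.81e-07), and was the member of its list higher in YFP+ than in YFP- (1.11, limma adjusted p = 0.00525). Selplg, the ligand of P-selectin, fell from 1013 to 277 and 94.5 CPM (-3.45 in YFP+, limma adjusted p = 1.34e-08). Hmmr, a hyaluronan-binding spindle protein, was lower by -2.42 in YFP+ (limma adjusted p = 1.69e-05). Hyal2, a surface hyaluronidase, rose by 1.63 in YFP- and 1.48 in YFP+ (limma adjusted p = 1.54e-05 and 1.70e-05).

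Ly6a and Cd38, read as marks of interferon exposure or activation, were lowest in YFP+ samples. Ly6a (ENSMUSG00000075602, chromosome 15, 74994877 to 74998031, minus strand, protein coding) encodes Sca-1, a GPI-anchored protein of stem cells and activated lymphocytes. Unstimulated f2, m2, m3 and m4 gave 20.5, 32.9, 26.2 and 18.1 CPM. The YFP- samples gave 13.1, 18.6, 19.3 and 10.1 CPM. From YFP+ came 3.96, 6.56, 6.38 and 2.43 CPM. Each YFP+ sample was below every other sample, and the YFP- and unstimulated ranges overlapped slightly. Ly6a fell 5.30-fold in YFP+ against unstimulated samples (log2 difference -2.40, SE 0.32, limma adjusted p = 1.88e-05) and 3.29-fold against YFP- (-1.72, SE 0.32, limma adjusted p = 0.00177). In YFP- against unstimulated the difference was -0.69 (95% interval -1.37 to -0.0020, limma adjusted p = 0.0866), lower within all 4 labels. That difference was called in 8 alternatives, among them trimmed-mean scaling (-0.82, limma adjusted p = 0.0402). Reads of the closely related Ly6 genes can be split between copies, so levels in this family are uncertain.

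Of 15 other Ly6 family genes listed, 4 were tested, with 0 higher and 2 lower in YFP-, 0 higher and 3 lower in YFP+, and 0 higher and 1 lower between YFP+ and YFP-, at medians of -0.51, -1.42 and -0.65. Ly6e, the most abundant, fell from 1163 to 849 and 301.5 CPM (-1.96 in YFP+, limma adjusted p = 3.05e-08) and was the one below YFP- as well (-1.49, limma adjusted p = 8.09e-06). Ly6g5b was lower by -1.76 in YFP+ (limma adjusted p = 0.00442). Ly6c2, a marker of mature lymphoid and myeloid cells, was lower by -1.07 (limma adjusted p = 0.00159).

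Cd38 (ENSMUSG00000029084, chromosome 5, 43868553 to 43912375, plus strand, protein coding) encodes the ectoenzyme that cleaves NAD to ADP-ribose and cyclic ADP-ribose, and binds CD31. It was a minor transcript, at 8.24, 7.13, 8.16 and 10.3 CPM in unstimulated f2, m2, m3 and m4. YFP- values were 6.09, 8.80, 5.71 and 7.81 CPM. YFP+ values were 4.35, 4.39, 5.0 and 4.73 CPM, from 152 to 238 reads. The YFP+ samples lay tightly below all others, and YFP- and unstimulated samples overlapped. Cd38 was 1.82-fold lower in YFP+ than in unstimulated samples (log2 difference -0.86, SE 0.17, limma adjusted p = 6.54e-04) and 1.52-fold lower than in YFP- (-0.60, SE 0.17, limma adjusted p = 0.0236). The second call ended with trimmed-mean scaling (-0.42, limma adjusted p = 0.11), quantile normalization (-0.26, limma adjusted p = 0.33) and without the label f2, m2 or m4. YFP- against unstimulated gave -0.26 (95% interval -0.63 to 0.11, limma adjusted p = 0.222), lower within 3 labels. The overlapping Gm16014 and Gm16015 share 0 exon bases with Cd38 and held at most 9 and 6 reads.

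Of 19 listed genes of NAD and adenosine metabolism 16 were tested, 6 higher and 4 lower in YFP-, 4 higher and 5 lower in YFP+ against unstimulated, and 0 higher and 2 lower in YFP+ against YFP-. Medians were 0.20, -0.13 and -0.39. Over all genes 27.5% were higher and 33.3% lower in YFP+ against unstimulated samples. Nmnat2, which makes NAD from its mononucleotide, rose from 0.177 to 4.11 and 2.07 CPM (3.73 in YFP+, limma adjusted p = 3.21e-05). Naprt, which starts NAD synthesis from nicotinic acid, fell from 15.9 to 8.96 and 3.0 CPM (-2.46, limma adjusted p = 4.42e-07). Entpd1, CD39, which degrades extracellular ATP, fell from 47.1 to 15.3 and 9.65 CPM (-2.32, limma adjusted p = 1.95e-06). Nt5e, CD73, which acts after CD39, was at 2.64, 9.50 and 3.59 CPM higher in YFP- than in unstimulated samples (1.81, limma adjusted p = 3.78e-05), and YFP+ was below YFP- by -1.38 (limma adjusted p = 0.00111). Pecam1, CD31, rose by 0.72 in YFP- (limma adjusted p = 0.00483).

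Tfrc (ENSMUSG00000022797, chromosome 16, 32608920 to 32632794, plus strand, protein coding) was the antigen that was highest in reporter-positive cells. Its mRNA carries iron-responsive elements, bound and stabilised in low iron by the iron regulatory proteins encoded by Aco1 and Ireb2. Unstimulated samples f2, m2, m3 and m4 read 32.4, 31.8, 34.3 and 26.6 CPM. YFP- samples read 43.8, 47.7, 47.3 and 44.5 CPM. YFP+ samples read 73.9, 83.5, 114 and 78.0 CPM. The groups were fully separate in the order unstimulated, YFP-, YFP+, and m3 was the highest YFP+ sample for this gene. Tfrc rose 2.77-fold in YFP+ over unstimulated (log2 difference 1.47, SE 0.14, limma adjusted p = 1.13e-06) and 1.88-fold over YFP- (0.91, SE 0.14, limma adjusted p = 5.82e-04), the latter ranking 161 by size among the rises of 12364 genes. Without YFP+ m3 the gap to YFP- was 0.78 (limma adjusted p = 6.26e-04). YFP- exceeded unstimulated samples by 0.56 (SE 0.14, limma adjusted p = 0.0054), but with median centring the difference was 0.42 (limma adjusted p = 0.0524), with quantile normalization 0.36 (limma adjusted p = 0.103) and with ribosomal-RNA-like features left out 0.37 (limma adjusted p = 0.0788), and the call ended.

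Of 15 iron handling genes 11 were tested, 5 higher and 1 lower in YFP-, 3 higher and 2 lower in YFP+ against unstimulated, and 1 higher and 1 lower in YFP+ against YFP-, at medians of 0.08, 0.15 and -0.11. Hmox1, heme oxygenase, which frees iron from heme, rose from 7.50 to 134 and 242 CPM (5.02 in YFP+, limma adjusted p = 7.06e-10) and, as Tfrc did, was higher in YFP+ than in YFP- (0.84, limma adjusted p = 0.00897). The ferritin chains, which store iron, differed from each other. Ftl1, the light chain, rose from 799 to 1854 and 1962 CPM (1.29 in YFP+, limma adjusted p = 1.14e-06). Fth1, the heavy chain, was at 1665, 1482 and 951 CPM, lower in YFP+ by -0.81 (limma adjusted p = 2.11e-05). Steap3, a ferric reductase of the transferrin cycle, was lower by -1.29 in YFP+ (limma adjusted p = 0.00419). Aco1 was at 12.2, 8.99 and 11.6 CPM and Ireb2 at 9.24, 9.75 and 9.49 CPM; Aco1 was lower in YFP- by -0.42 (limma adjusted p = 0.0479).

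Other activation antigens were set beside the 7. Of 20 listed genes, some of them, such as Nt5e and Cd86, also on the lists above, 17 were tested: 11 higher and 2 lower in YFP-, 9 higher and 5 lower in YFP+ against unstimulated, and 2 higher and 6 lower in YFP+ against YFP-. Medians were 1.80, 1.42 and -0.31. Tnfrsf4, OX40, rose from 0.371 to 15.4 and 53.2 CPM (7.27 in YFP+, limma adjusted p = 1.38e-09), and was one of the pair higher in YFP+ than in YFP- (1.80, limma adjusted p = 0.00146). The other was Slc7a5, an amino acid transporter named after its value was seen (0.61, limma adjusted p = 0.0161). Crtam, an adhesion receptor of activated cytotoxic cells, rose from 13.3 to 1470 and 1704 CPM (6.89, limma adjusted p = 8.19e-10). Il2ra, the high-affinity IL-2 receptor chain, rose from 7.20 to 288.5 and 232 CPM (5.01, limma adjusted p = 2.71e-10). Il7r went from 1.5 and 1.37 CPM to 0.0414 CPM in YFP+, below the level of 3 reads, and no fold is given.

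**Figure D3:**
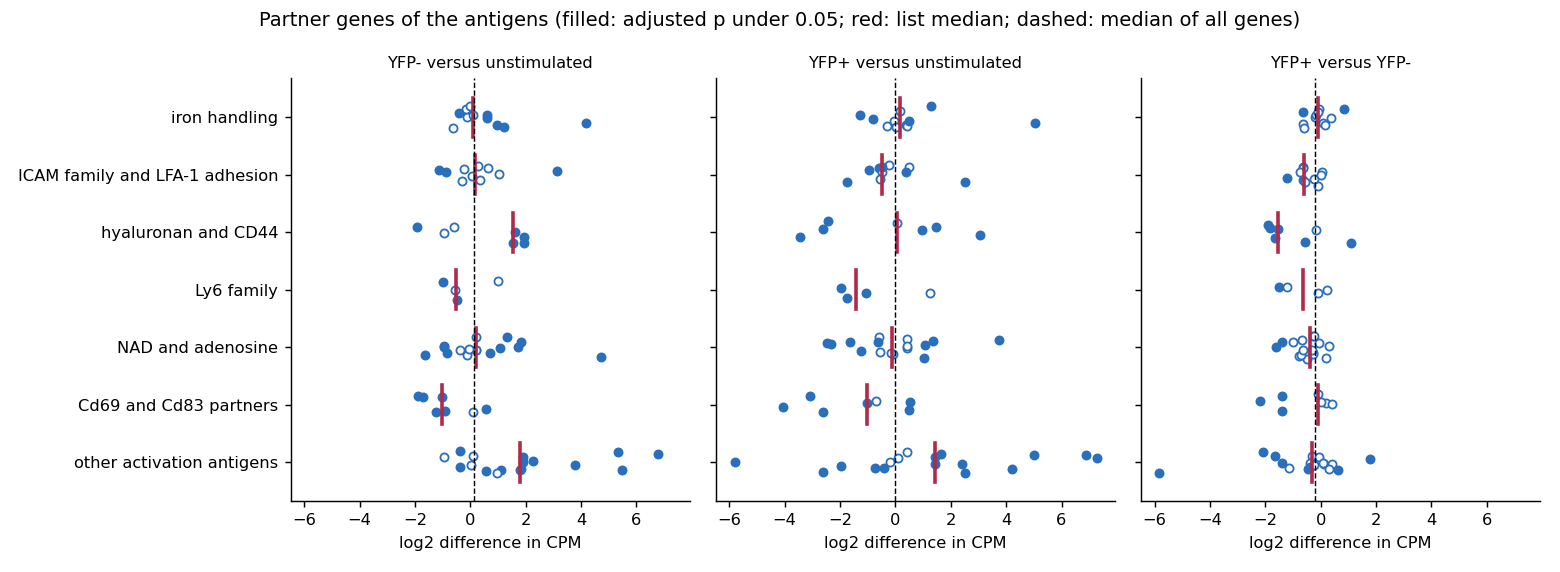
Log2 difference in CPM (horizontal axis) of each tested partner gene, by list, for the 3 comparisons. Filled points have a limma adjusted p under 0.05, red bars are list medians and the dashed line is the median of all genes; the other activation antigens centre at 1.80 and 1.42 above unstimulated and at -0.31 between YFP+ and YFP-.

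Levels of different genes were compared per kb of exon, in CPM per kb, since longer mRNAs collect more reads. The length counts the bases of all annotated exons of a gene, which can exceed the mRNA present in these cells. It was 6509 bases for Cd69 and 1205 for Ly6a, so the order between genes depends on this measure. In unstimulated samples the order was Ly6a (20.3), Cd69 (18.1), Icam1 (5.89), Cd44 (5.52), Tfrc (5.06), Cd38 (2.17) and Cd83 (0.356). There Ly6a and Cd69 overlapped, as did Icam1, Cd44 and Tfrc. In YFP- samples Cd83 moved from last to first at 85.4, ahead of Icam1 (61.7) and Cd69 (56.5), although neighbours among these overlapped, followed by Cd44 (24.7), Ly6a (12.7), Tfrc (7.41) and Cd38 (1.83), each separate from the next. In YFP+ samples Cd69 led at 39.7, clear of Cd44 (20.1), Cd83 (17.6), Icam1 (14.7) and Tfrc (14.1), whose neighbours overlapped, and Ly6a (4.01) and Cd38 (1.19) came last.

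Groups did not overlap, with all 4 samples higher, for 5 members in YFP- against unstimulated (30.9% of all genes) and for 4 in YFP+ against unstimulated (24.0%). All 4 samples were lower for 0 and 2 members (21.7% and 30.8% of genes). In YFP+ against YFP- 1 member was separate and higher (4.31% of genes) and 4 were separate and lower (17.8%). Cd69 and Cd44 were the members whose YFP+ and YFP- samples overlapped.

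**Figure D4:**
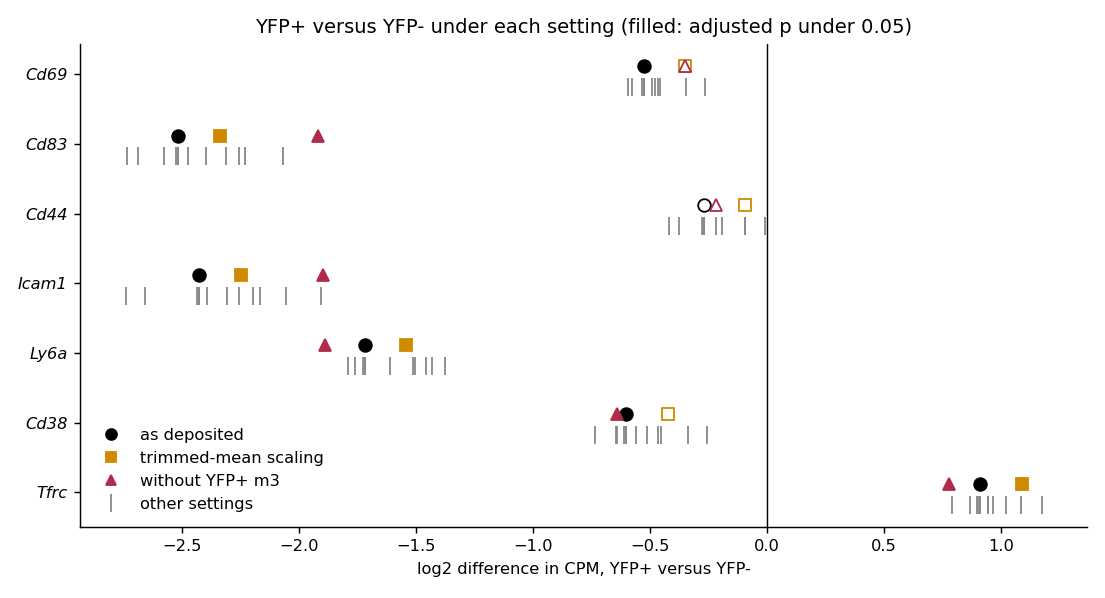
Log2 difference in CPM between YFP+ and YFP- samples (horizontal axis) for each antigen as deposited, with trimmed-mean scaling, without YFP+ m3 and in the other settings that change the fit. Filled symbols have a limma adjusted p under 0.05; Cd83, Icam1, Ly6a and Tfrc keep filled symbols in all 3 marked settings, whereas Cd69 and Cd38 do not.

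For each antigen the 3 genes with the most similar pattern were found by Pearson correlation of log2 CPM over the 12 samples, among 8150 genes. These samples fall into 3 groups that share library depth and scaling within a sample, so the values are a description. By Spearman correlation 2 of the 3 genes stayed for Cd38 and 0 for each other antigen, so the names depend on the measure. Cd69 was followed most closely by Hnrnpc (r = 0.987), Phf23 (0.985) and Bcl2l1 (0.981), and Cd83 by Serpine2 (0.985), Dnajc12 (0.984) and Stap1 (0.982). Cd44 was followed by Ado (0.992), Tagap (0.992) and Egr2 (0.991). For Icam1 they were Nfkbie (0.989), which encodes an NF-kB inhibitor, Fam129a (0.983) and Nr4a1 (0.981), an immediate early nuclear receptor. Nfkbie stood at 11.5, 71.9 and 20.4 CPM and Nr4a1 at 9.04, 174 and 18.3 CPM in unstimulated, YFP- and YFP+ samples, high in YFP- and much lower in YFP+, as Icam1 was. Egr2, an early growth response factor, stood at 11.1, 285 and 266 CPM and so, like Cd44, was at similar levels in both stimulated groups. Ly6a was followed by Rnf43 (0.976), Serpinb6a (0.961) and Prc1 (0.957), and Cd38 by Il17ra (0.961), Retreg3 (0.960) and Eps15 (0.951). Tfrc was followed by Manf (0.978), a chaperone of the endoplasmic reticulum, Atp5g1 (0.974), a subunit of ATP synthase, and Magohb (0.972), and Manf stood at 101, 165 and 323 CPM.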

How the data were processed

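RNA from 12 samples labelled as natural killer cells was sequenced as paired ends on an Illumina NovaSeq after SMARTer cDNA synthesis, per the labels' protocols. The submitters' processing notes name bcl2fastq, STAR 2.7.9a, Subread, featureCounts 2.0.3 and GRCm38, with no role; annotation release and strand setting are not given in the sources used here. The deposited file is a single table of log2 CPM moderated by a prior count, per the file headers. Of 55774 lines, 287 repeats were dropped. Whole reads were recovered from 100% of values within 0.01 reads (prior 0.5 reads; largest difference from the formula 5.51e-14), and 0 sample columns belonged to no sample. Positions and exon lengths come from GENCODE M21 (55141 features, 99.4%, matched by identifier).

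Genes that exceeded a log2 CPM of 0 in 4 or more samples were fitted with limma 3.58.1 (R 4.3.3; 1 coefficient per group, no replicate block, eBayes with trend); calls had a Benjamini-Hochberg adjusted p under 0.05. The fit was run on simulated reads in which few genes changed, in YFP+ only and equally in both directions. These data differ from that setting, so the run does not test the calls above. Other steps used Python 3.11.15. A list names up to 4 called genes by size of difference in YFP+ against unstimulated, plus partners; some genes the rule picks are not reported here. Fold changes are on the log2(CPM + prior) scale and understate changes of low genes. Members and lists were chosen with earlier results of these data known. The 19 alternatives covered scaling (median centring, quantile, trimmed mean, 359 rRNA-like features left out), filters, pseudocount, weights, thresholds, the replicate block and left-out samples.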

Additional observations from a re-analysis of the deposited data

Results flagged for a closer look

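Cd83 in the YFP+ group was flagged because 1 sample lay far from the other samples: replicate m3, at 10.8 CPM against 51.0 to 61.1 CPM. Its gap to the nearest sample was 0.895 of the group's range on the log2 scale, above Dixon's 95% limit for 4 samples. Of 21 sets of 4 values examined, 1 passed the limit, and chance gives about 1 in 20. The same library had 29.8% of its reads on rRNA-like features. With those features left out of all totals the Cd83 difference between YFP+ and YFP- was -2.52 (limma adjusted p = 8.04e-04), and with them -2.52. These values compare group means and do not place m3 against the other YFP+ samples. The part of the rRNA-like share in the m3 value was not tested.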

How the results depend on the processing

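Of 21 differences (7 genes, 3 comparisons), 13 kept direction and side of the threshold in all 19 alternatives, and 0 reversed. Of 399 values 354 were the same, 31 weaker and 14 stronger. Alternatives such as the thresholds, the filters and the replicate block leave the difference itself unchanged, so they could not reverse it. The number of antigens called between YFP+ and YFP- fell from 6 to 3 with no filter and to 3 with a log2 difference of at least 1; it was 4 to 6 when a label was left out. The call of Icam1 between YFP+ and YFP- ended with no filter (limma adjusted p = 0.0533).

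The replicate block called Ly6a in YFP- (-0.69, limma adjusted p = 0.00326) and Icam1 in YFP+ (0.99, limma adjusted p = 0.0134) against unstimulated samples, and changed no other call of these genes. Correlations of same-label deviations for labels f2, m2, m3 and m4 were 0.10, -0.00, -0.06 and 0.07 (unstimulated and YFP-), 0.38, 0.09, -0.04 and 0.14 (unstimulated and YFP+), and 0.05, 0.35, 0.37 and 0.17 (between the stimulated groups); between the stimulated groups m2, m3 and m4 matched their own label best and f2 did not. Since not every pair exceeded 0.1 and the labels do not say what a shared label means, pairing was not assumed.

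Over all genes, YFP+ against YFP- gave 2691 calls, but 1583 with no filter, 1466 at an adjusted p under 0.01, 1256 with a log2 difference of at least 1, and 1526 to 2109 without a label. A log2 difference of at least 1 also took 6321 calls in YFP- and 7522 in YFP+ against unstimulated to 3239 and 4547. The share of calls that were higher in YFP+ than in YFP- was 15.1%, against 50.2% with median centring, 44.9% with quantile normalization, 38.7% with trimmed-mean scaling and 41.6% with voom weights; in YFP- against unstimulated it was 59.1%, against 46.8% without rRNA-like features and 48.4% with voom weights. The cause was not tested. By Spearman correlation 2 of the 3 most alike genes stayed for Cd38 and 0 for the other 6 antigens. In the 100 bases before the start, Icam1 held 0 NF-kB and Cd44 0 NFAT matches.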
